A study of Mus musculus with 5 samples.

Results

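The CpGs described here lie near the centromeres of the mouse autosomes, between base 3000000 and base 8000000 of chromosomes 1 to 19 in build mm9. A position was a member where each of 5 bisulfite libraries held at least 10 reads of it. There were 9621 such positions, counted per strand, which is 3.43% of the 280635 autosomal positions that met the same coverage rule. The other 271014 served as the reference and are called the rest of the autosomes. No autosomal position before base 3000000 was listed in any library, and the first member of each chromosome lay between base 3000048 and base 3429602. The windows were defined by coordinates alone, and how much of them is satellite or other repeated sequence was not analysed here.

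Mouse autosomes carry the centromere at one end, embedded in satellite repeats that are packed as heterochromatin and heavily methylated in most tissues. The assembled sequence begins beside these arrays, so its first megabases join heterochromatin to ordinary gene-bearing DNA. Elsewhere in the genome, CpG-dense promoters are mostly free of methylation in blood cells, whereas CpGs that lie far apart are mostly methylated.

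Bone marrow LSK cells were assayed by extended reduced representation bisulfite sequencing, in which MspI fragments, mostly CpG-rich, are read after bisulfite has turned unmethylated cytosine into a base read as T. LSK cells bear no markers of mature lineages but do bear Sca1 and Kit, and this fraction contains the stem and progenitor cells of blood. The 3 knock-in libraries came from mice with the Idh1-R132H allele and the 2 wild-type libraries from mice without it, all on a 129Ola x C57Bl/6J background. Idh1 encodes a cytosolic isocitrate dehydrogenase, and the R132H enzyme makes 2-hydroxyglutarate, which can inhibit the TET enzymes that oxidise methylated cytosine. The question was whether methylation differs between these genotypes. Age, zygosity, the reach of the knock-in allele over cell types and the number of animals behind a library are not given in the sources used here, so p-values measure only how far these libraries differ from each other, which may be technical.

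Libraries are called knock-in 1, 2 and 3 and wild-type 1 and 2, and values are given in that order. Median coverage of the members was 60, 26, 137, 18 and 38 reads, against 60, 25, 137, 18 and 38 reads in the rest of the autosomes. Median depth differed up to several-fold between libraries and was nearly equal between the windows and their reference. Members were 12.3% of the 78453 window positions listed in any library, against 12.04% in the rest. The number of members per chromosome ran from 51 on chromosome 14 to 2524 on chromosome 19, and chromosomes 11 and 19 together held 42.4% of them.

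RefSeq promoter sequences of genome build GRCm38.p6, which cover 250 bases before to 50 bases after a gene's start, were placed on the listed mm9 positions by the spacing of their CpGs. This placed 322 promoters of 280 genes in the windows of 14 chromosomes, and 155 of these genes had at least 3 members in the promoter. The 4 sequences below are shown because they carry the promoter results that follow. Arhgef18 and Il11 were the protein-coding genes with intermediate promoter methylation, Usp6nl stood in a tile with many CpGs and almost no methylation, and Cyp51 stood in the tile of one of the smallest p-values with the knock-in lower. Each is given 5′ to 3′ on the gene's strand, with capitals for the CpGs that had 10 reads in all 5 libraries.
Arhgef18: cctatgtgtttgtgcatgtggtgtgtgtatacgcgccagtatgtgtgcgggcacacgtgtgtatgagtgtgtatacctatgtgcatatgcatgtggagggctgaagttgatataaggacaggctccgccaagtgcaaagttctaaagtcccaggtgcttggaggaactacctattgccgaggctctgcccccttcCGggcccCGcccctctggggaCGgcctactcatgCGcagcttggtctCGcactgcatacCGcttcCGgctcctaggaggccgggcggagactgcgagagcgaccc
Il11: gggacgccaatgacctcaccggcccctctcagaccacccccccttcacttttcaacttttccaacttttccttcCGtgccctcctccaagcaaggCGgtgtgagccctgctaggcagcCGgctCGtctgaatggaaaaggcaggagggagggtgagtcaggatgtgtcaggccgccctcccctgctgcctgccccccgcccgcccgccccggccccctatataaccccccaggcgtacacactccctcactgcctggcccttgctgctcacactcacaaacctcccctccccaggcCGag
Usp6nl: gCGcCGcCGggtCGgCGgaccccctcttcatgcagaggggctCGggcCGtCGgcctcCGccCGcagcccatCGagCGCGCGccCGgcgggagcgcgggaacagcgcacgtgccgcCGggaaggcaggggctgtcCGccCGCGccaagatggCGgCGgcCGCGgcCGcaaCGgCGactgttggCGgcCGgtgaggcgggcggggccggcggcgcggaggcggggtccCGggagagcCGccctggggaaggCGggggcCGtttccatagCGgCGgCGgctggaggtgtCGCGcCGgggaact
Cyp51: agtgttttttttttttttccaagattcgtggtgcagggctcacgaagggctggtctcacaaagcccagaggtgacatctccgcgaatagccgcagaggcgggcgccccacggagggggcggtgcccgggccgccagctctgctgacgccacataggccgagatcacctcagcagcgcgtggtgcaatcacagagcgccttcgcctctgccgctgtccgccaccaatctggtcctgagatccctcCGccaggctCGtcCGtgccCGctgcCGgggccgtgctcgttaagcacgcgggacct
In mm9 the measured positions of Arhgef18 lay at chr8:3392953-3393019 on the forward gene strand, and those of Il11 at chr7:4729696-4729918 on the reverse gene strand. Those of Usp6nl lay at chr2:6243555-6243845 on the forward gene strand and those of Cyp51 at chr5:4104677-4104702 on the reverse gene strand. The sequences held 17, 13, 51 and 28 CpGs in that printed order, of which 7, 5, 38 and 5 are in capitals. They held 3, 3, 7 and 2 copies of CCGG, the palindromic site that MspI cuts, which is the same on both strands. CCGG occurred in 52.8% of the 32851 promoters in the table.

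Methylation of the members was low on the whole. The mean level over CpGs was 22.5%, 22.7% and 22.01% in the knock-in against 21.7% and 21.8% in wild-type libraries. Each knock-in library exceeded each wild-type library, but by less than 1 percentage point at the group means. The means were 22.4% ± 0.376 (SD, n = 3) and 21.7% ± 0.0468 (SD, n = 2), a difference of 0.693 points with p = 0.2 in an exact 2-sided permutation test, whose smallest possible p with these groups is 0.1. In the rest of the autosomes the means were 20.9% ± 0.363 (SD, n = 3) and 20.2% ± 0.149 (SD, n = 2), a difference of 0.692 points. The difference between these 2 differences was 0.000786 points, with p = 1.0 in the exact permutation test. Over CpGs counted once, the genotype difference near the centromeres was thus of the size found elsewhere. Weighted by reads it was 0.631 points in the windows and 1.15 points in the rest, and the difference of -0.524 points had an exact permutation p of 0.6.

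Within every library the windows were more methylated than the rest of the autosomes. The excess was 1.48, 1.56, 1.51, 1.59 and 1.44 points, or 1.52 ± 0.0584 (SD, n = 5). An exact 2-sided sign-flip permutation test gave p = 0.0625, the smallest p that 5 libraries allow. All libraries read the same positions, so this p measures their agreement and not whether the windows exceed the spread between regions. The size of the excess rested on which positions were counted. It was 1.06 points without chromosome 9 and 0.538 points without the first 0.1 Mb of each window, a division chosen after the values were seen. It was 3.35 points at a coverage minimum of 20, 3.61 points when CpGs were weighted by reads and 2.50 points without chromosomes 11 and 19. The excess was above 0 in each library in all of these settings.

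Most members stood near 0 or near 100%. By the mean of all libraries, 7227 CpGs (75.1%) were under 20%, 446 (4.64%) were between 20 and 80%, and 1948 (20.2%) were at 80% or more. The corresponding shares of the rest of the autosomes were 76.8%, 4.74% and 18.5%. The higher level of the windows therefore went with a larger share of highly methylated CpGs. The highly methylated class itself was at 94.5% in the windows and 94.4% in the rest, and the low class was at 0.662% and 0.845%.

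The intermediate CpGs differed most in points between the groups. The classes were cut on the mean of these same libraries, and CpGs near 0 or 100% have less room to differ. Levels of the intermediate CpGs were 57.1%, 59.0% and 55.4% in the knock-in against 49.2% and 51.6% in wild-type libraries, which did not overlap. The means were 57.2% ± 1.80 (SD, n = 3) and 50.4% ± 1.72 (SD, n = 2), 6.78 points apart, with p = 0.1 in the exact permutation test, the smallest possible. The same class differed by 5.36 points in the rest of the autosomes, and the difference of 1.43 points between the windows and the rest had an exact permutation p of 0.2. Values of exactly 0 or 100% occurred in this class in every library, and their shares did not follow the order of depth. In knock-in 2, at a median of 22 reads, 157 of the 446 CpGs (35.2%) stood at exactly 0 or 100%. The counts were 74 (16.6%) in wild-type 1 at a median of 17 reads and 56 (12.6%) in knock-in 1 at 53 reads. They were 18 (4.04%) in wild-type 2 at 32 reads and 9 (2.02%) in knock-in 3 at 127 reads. The part of these extreme values in the genotype difference was not tested. Highly methylated CpGs averaged 95.0% ± 1.42 (SD, n = 3) in the knock-in and 93.7% ± 0.280 (SD, n = 2) in the wild-type, and their libraries overlapped. CpGs under 20% averaged 0.731% ± 0.126 (SD, n = 3) and 0.557% ± 0.0317 (SD, n = 2), with an exact permutation p of 0.2.

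The windows also exceeded the rest at equal CpG density. Positions were grouped into tiles of 1 kb, and 895 window tiles had at least 3 members each, holding 8658 of the 9621 CpGs. Density was the number of positions of a tile listed in any library. Where reads of a tile or promoter are given, they are summed over its CpGs, so a read spanning several CpGs counts once for each. Tiles with 3 to 9 listed positions were at 79.97% in the windows (194 tiles) and 78.1% in the rest. Tiles with 10 to 29 were at 46.3% (282 tiles) and 42.6%, and tiles with 30 or more at 4.71% (419 tiles) and 3.18%. The gaps of 1.85, 3.75 and 1.53 points each had an exact sign-flip permutation p of 0.0625, which again measures only agreement between libraries. They were 1.66, 2.48 and 1.16 points without the first 0.1 Mb of the windows.

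Pooled over its CpGs, the first 0.1 Mb of the windows was far more methylated than the remainder. On chromosome 9 it held 43 CpGs at 81.5% to 84.5%, with a mean of 83.6%, whereas the other 106 CpGs of that window averaged 32.8%. On 9 other chromosomes the same stretch held 150 CpGs at a mean of 66.0%, with a range over libraries of 64.4% to 67.6%. That pool was not uniform. It included the tile that starts at chr2:3035000, with the Fam171a1 promoter, at 0.703%, and the tile chr17:3084000-3084999 at 20.0%. The 9428 CpGs beyond the first 0.1 Mb averaged 21.2%. In the first 0.1 Mb the genotypes separated neither on chromosome 9, with a difference of -0.98 points, nor on the others, with 0.286 points. This stretch was read more deeply than the remainder. Library medians of coverage ran from 35 to 507 reads on chromosome 9, against 18 to 128 in the rest of that window. On the 9 others they ran from 29 to 196.5 reads, against 18 to 136 in all windows beyond it. The cause of the greater depth was not tested.

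Pooled over chromosomes, the level was 23.4% at 3 to 4 Mb (2104 CpGs), a bin that includes this stretch, and 18.7% from 3.1 to 4 Mb (1911 CpGs), without it. It was 21.1% at 4 to 5 Mb (2382) and 21.1% at 5 to 6 Mb (2213). It was then 22.7% at 6 to 7 Mb (1698) and 23.2% at 7 to 8 Mb (1224), so beyond the first stretch no later bin stood lower than the one before it. The 15 bins from 8 to 23 Mb ranged from 16.5% to 26.0%, so each megabase of the windows lay within the range of the DNA that follows. The knock-in was higher in all 5 bins, by 0.92, 0.575, 0.818, 0.608 and 0.423 points, and in each of them all 3 knock-in libraries stood above both wild-type libraries. That was so in 66.7% of the 15 bins from 8 to 23 Mb, and the knock-in mean was higher in all 15 of those.

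**Figure D1:**
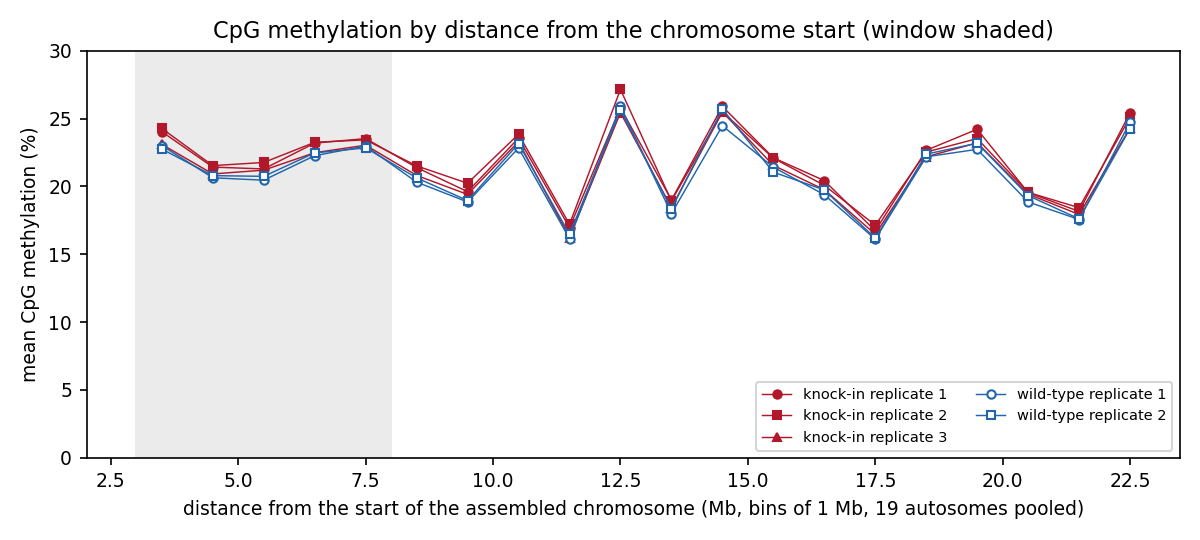
Mean CpG methylation (%) of each library (lines with points, 3 knock-in and 2 wild-type) in bins of 1 Mb by distance from the chromosome start in Mb, with 19 autosomes pooled and the window shaded. The 5 bins of the window lie between 21.1% and 23.4%, inside the 16.5% to 26.0% of the bins that follow.

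The average hid large differences between chromosomes. The most methylated windows were those of chromosome 9 at 47.4% ± 0.782 (SD, n = 5; 149 CpGs), chromosome 13 at 44.4% ± 0.452 (172 CpGs) and chromosome 3 at 39.3% ± 1.83 (89 CpGs). The rest of these chromosomes was at 19.7%, 19.6% and 20.0%. Chromosome 8 followed at 38.0% ± 1.34 (287 CpGs) against 21.9%. The lowest were chromosome 5 at 8.58% ± 0.372 (305 CpGs), chromosome 18 at 14.5% ± 0.288 (398 CpGs) and chromosome 2 at 17.4% ± 0.576 (473 CpGs), against 21.6%, 20.1% and 19.03%. The spread over libraries was thus far smaller than the spread between chromosomes.

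The window was above the rest of its own chromosome on 10 chromosomes, in all 5 libraries on 9 of them, and below it on 9, in all libraries on 5. The smallest of the 19 Benjamini-Hochberg adjusted p-values of the exact sign-flip permutation test was 0.0848. CpG density differed between the windows, though not in step with their level on every chromosome. Tiles with 30 or more listed positions held 24.8% of the CpGs in the chromosome 9 window, 39.0% on chromosome 13 and 46.0% on chromosome 8, against 67.0% to 67.2% in the rest of those chromosomes. On chromosome 3 these tiles held 59.6%, against 66.7% in the rest of that chromosome. They held 82.6% on chromosome 5 and 79.2% on chromosome 18. Against this order, they held 0% on chromosome 14, whose window was at 22.2%, and 57.3% on chromosome 6, whose window stood at 17.6% and below its rest. The excess on chromosome 9 was 27.7 points over CpGs, 14.4 over tiles and 7.53 over tiles with the rest of the chromosome weighted to the density classes of the window. In the same order it was 24.8, 22.5 and 11.8 points on chromosome 13 and 16.02, 12.8 and 5.19 points on chromosome 8. On chromosome 3, whose window held only 10 tiles, it was 19.3, 13.9 and 16.3 points. On chromosome 5 it was -13.0, -18.0 and -6.77 points. On chromosome 18 it was -5.58 points over CpGs but 2.95 and 3.67 points over tiles, so the direction turned with the unit counted. Over tiles, with and without the weighting, 13 windows stood above the rest of their chromosome and 6 below.

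**Figure D2:**
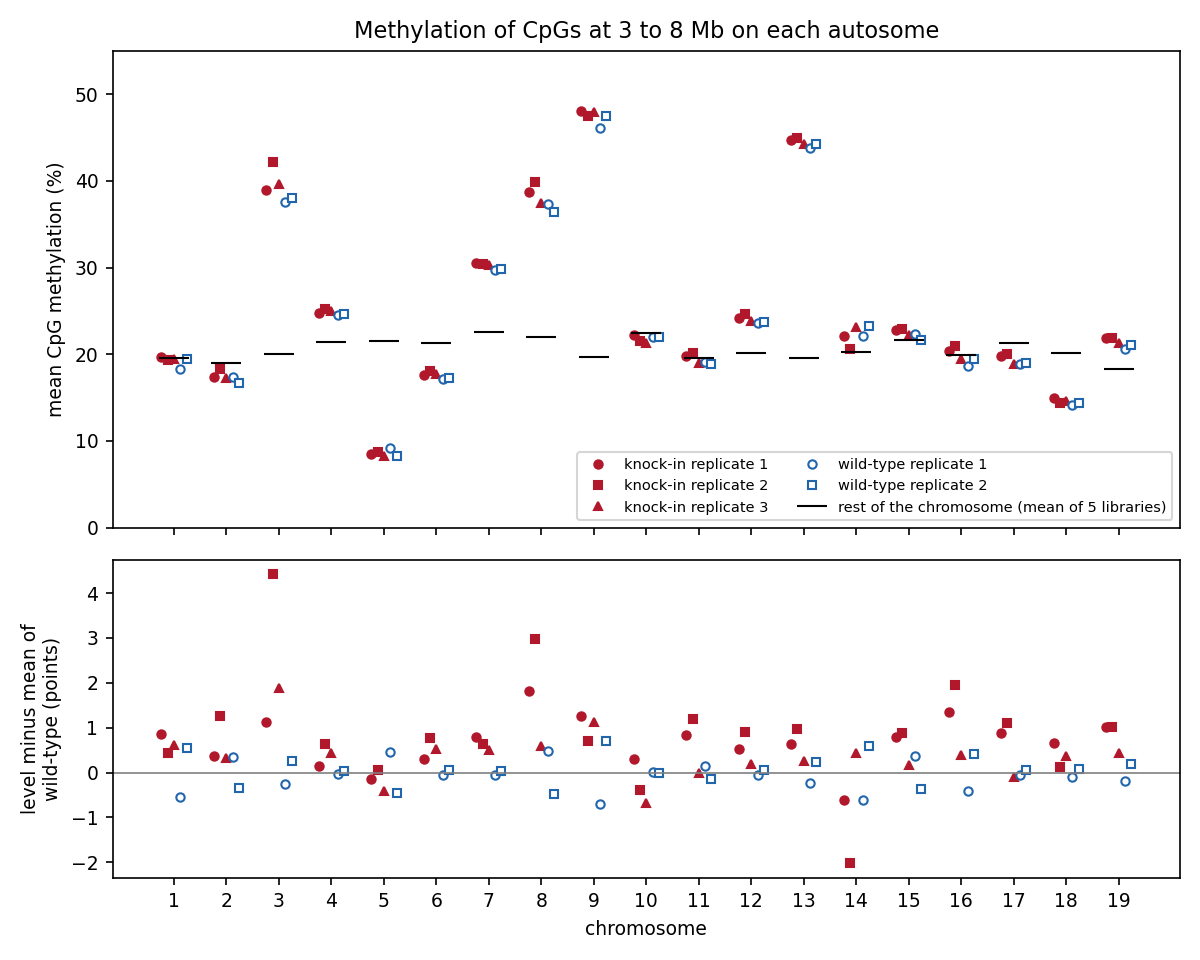
Upper panel: mean methylation (%) of the window CpGs of each of 19 autosomes, with 1 point per library and a dash for the mean of 5 libraries over the rest of the chromosome. Lower panel: each library's level minus the wild-type mean, in percentage points; chromosomes 9, 13, 3 and 8 stand highest and chromosome 5 lowest, while the groups differ by under 2.5 points on every chromosome.

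The genotype difference was small on every chromosome. The knock-in mean was higher on 16 windows and lower on 3, namely chromosomes 5 (-0.167 points), 10 (-0.254) and 14 (-0.731). All knock-in libraries stood above both wild-type libraries on 10 windows, those of chromosomes 3, 4, 6, 7, 8, 9, 12, 13, 18 and 19. In the rest of the same chromosomes that was so on 18 of 19, or 94.7%, each with many more CpGs than its window; the 2 counts were not compared by a test. The smallest adjusted p over the 19 windows was 0.345 by the exact permutation test. Weighting CpGs by reads left 11 windows with the knock-in higher and turned the direction on 9, with chromosomes 3, 4, 7, 8, 13 and 18 of the 10 above among those that turned. A coverage minimum of 20 turned it on chromosome 9.

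Chromosome 3 had the largest difference, 40.3% ± 1.72 (SD, n = 3) in the knock-in and 37.8% ± 0.355 (SD, n = 2) in the wild-type, 2.48 points apart over 89 CpGs. It was -1.94 points when weighted by reads. Chromosome 8 was next at 38.7% ± 1.19 (SD, n = 3) and 36.9% ± 0.689 (SD, n = 2). Its difference of 1.80 points became 0.791 points, with overlapping libraries, without the 10 CpGs of the Arhgef18 promoter, and -1.09 points when weighted by reads. On the other 8 of the 10 chromosomes the knock-in was higher by 0.379 to 1.04 points.

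No tile was called different between the genotypes. edgeR's quasi-likelihood test with Benjamini-Hochberg adjustment over 24319 autosomal tiles called 0 of the 895 window tiles, and 0% of all autosomal tiles in each direction. The smallest adjusted p in the windows was 1. At an unadjusted p under 0.05 edgeR gave 4 tiles with the knock-in higher and 6 lower, where 0.843% and 0.748% of all tiles met that in each direction. The limma test on arcsine square root levels also called 0 tiles and gave 25 higher and 7 lower at an unadjusted p under 0.05, against 2.66% and 1.22% of all tiles. The smallest adjusted p of that limma test was 0.671 in the windows and 0.0514 over all autosomal tiles. With 3 against 2 libraries, the absence of calls does not show that the genotypes were equal. The median difference over the 895 tiles was 0.0569 points, and over all tiles 0.079 points.

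Tiles are called separated where all libraries of one genotype lay above all of the other and the means were at least 10 points apart. There were 28 such tiles with the knock-in higher, or 3.13%, where 2.37% of all autosomal tiles were separated in that direction. With the knock-in lower there were 7, or 0.782%, against 0.621%. Both shares were near the background. Of the 35 separated tiles, 20 held 3 CpGs, the fewest a tile could have. A stricter rule replaced the means 10 points apart by the nearest libraries 10 points apart. Under it 6 window tiles (0.670%) remained with the knock-in higher, against 0.313% of all autosomal tiles. With the knock-in lower 0 remained, against 0.037%. At a coverage minimum of 20, which left 336 window tiles, the counts were 4 and 0, against 1.14% and 0.272% of all autosomal tiles at that minimum.

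As a share of their level class, separated tiles were most frequent at intermediate levels, as they were in the rest of the autosomes. By number, more of them stood at 80% or more, in the windows and in the rest. A difference of 10 points is harder to reach near 0 or 100%. Of the 50 window tiles between 20 and 80%, 10 (20.0%) were separated with the knock-in higher and 1 lower, against 13.9% and 3.26% in the rest. Of the 290 at 80% or more, 15 (5.17%) were higher and 5 lower, against 3.69% and 1.11%. Of the 555 under 20%, 3 (0.541%) were higher and 1 (0.180%) lower, against 0.544% and 0.114%. The median difference was 5.00 points in intermediate window tiles and 4.89 points in those of the rest.

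**Figure D3:**
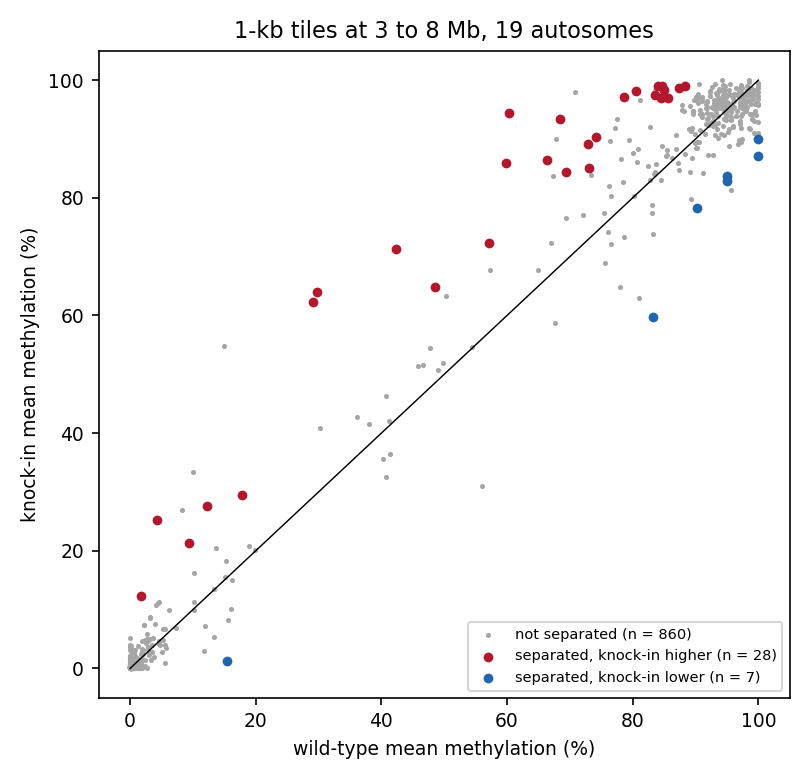
Mean methylation (%) of each of the 895 window tiles in the wild-type (x axis, mean of 2 libraries) and the knock-in (y axis, mean of 3 libraries), with separated tiles in colour and the line of equality. Most tiles sit near 0 or near 100% in both groups, and the 28 separated tiles with the knock-in higher and the 7 lower lie off the line.

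By chromosome, 12 of the 28 tiles with the knock-in higher lay on chromosome 19 and 7 on chromosome 8. On chromosome 8 these were 7 of 39 tiles (17.9%), where the rest of that chromosome had 31 of 1358 (2.28%). On chromosome 19 they were 12 of 239 (5.02%), against 15 of 619 (2.42%). Of the 7 on chromosome 8, the neighbouring tiles at chr8:3392000-3392999 and chr8:3393000-3393999 share the Arhgef18 promoter. The windows of chromosomes 1, 4, 5, 9, 11, 15 and 18 held no separated tile. The chromosomes were not compared by a test.

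The tile with the widest gap between the groups was chr19:4298000-4298999, which held 3 CpGs. Its levels were 93.4%, 96.2% and 90.6% in the knock-in against 69.8% and 67.1% in wild-type libraries, on 96 to 351 reads. Knock-in libraries were thus nearly full and wild-type libraries well below them. The means were 93.4% ± 2.78 (SD, n = 3) and 68.4% ± 1.92 (SD, n = 2), 25.0 points apart. The unadjusted edgeR p was 0.0802 and its adjusted p was 1.

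The tile chr6:6003000-6003999 (3 CpGs) was at 82.1%, 90.5% and 85.2% against 52.4% and 67.3%, a difference of 26.1 points. The tile chr17:6976000-6976999 (7 CpGs) was at 62.2%, 67.3% and 65.1% against 47.4% and 49.8%, a difference of 16.3 points that was 8.19 points at a coverage minimum of 20. In both tiles each knock-in library exceeded each wild-type library, as the choice of tiles required. A pair of tiles on chromosome 19, at chr19:6922000-6922999 and chr19:7514000-7514999, stood at 100%, 100% and 97.1% in the knock-in libraries. Their wild-type libraries were at 83.3% and 84.8% in the former, on as few as 30 reads summed over 3 CpGs. In the latter they were at 85.4% and 83.9%, and its difference of 14.4 points was 6.67 after thinning to 10 reads. The adjusted edgeR p of each of these 4 tiles was 1.

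Tiles with the knock-in lower rested on narrower gaps. The tile chr17:4683000-4683999 (4 CpGs) was at 75.3%, 77.5% and 81.8% in the knock-in against 91.0% and 89.5% in wild-type libraries, a difference of -12.0 points. The tile chr10:5935000-5935999 (3 CpGs) was at 79.7%, 81.4% and 87.6% against 96.2% and 93.8%. The tile chr6:4705000-4705999 (3 CpGs) was at 87.4%, 79.8% and 94.2% against 100% in both wild-type libraries. In these 3 tiles the highest knock-in library was 5.83 to 7.70 points below the lowest wild-type library.

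In 3 further tiles 1 library set the size of the difference. The tile chr8:4652000-4652999 (5 CpGs) differed by -11.4 points, by -6.50 without wild-type 1 and by -19.7 after thinning. The tile chr14:4752000-4752999 (3 CpGs) differed by -14.2 points, and by -7.06 without wild-type 1. That library stood at 22.6% there, on 31 reads summed over the CpGs. The tile chr2:4425000-4425999 (3 CpGs) differed by -10.1 points, and by -2.61 without knock-in 2, which stood at 75.0%.

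**Figure D4:**
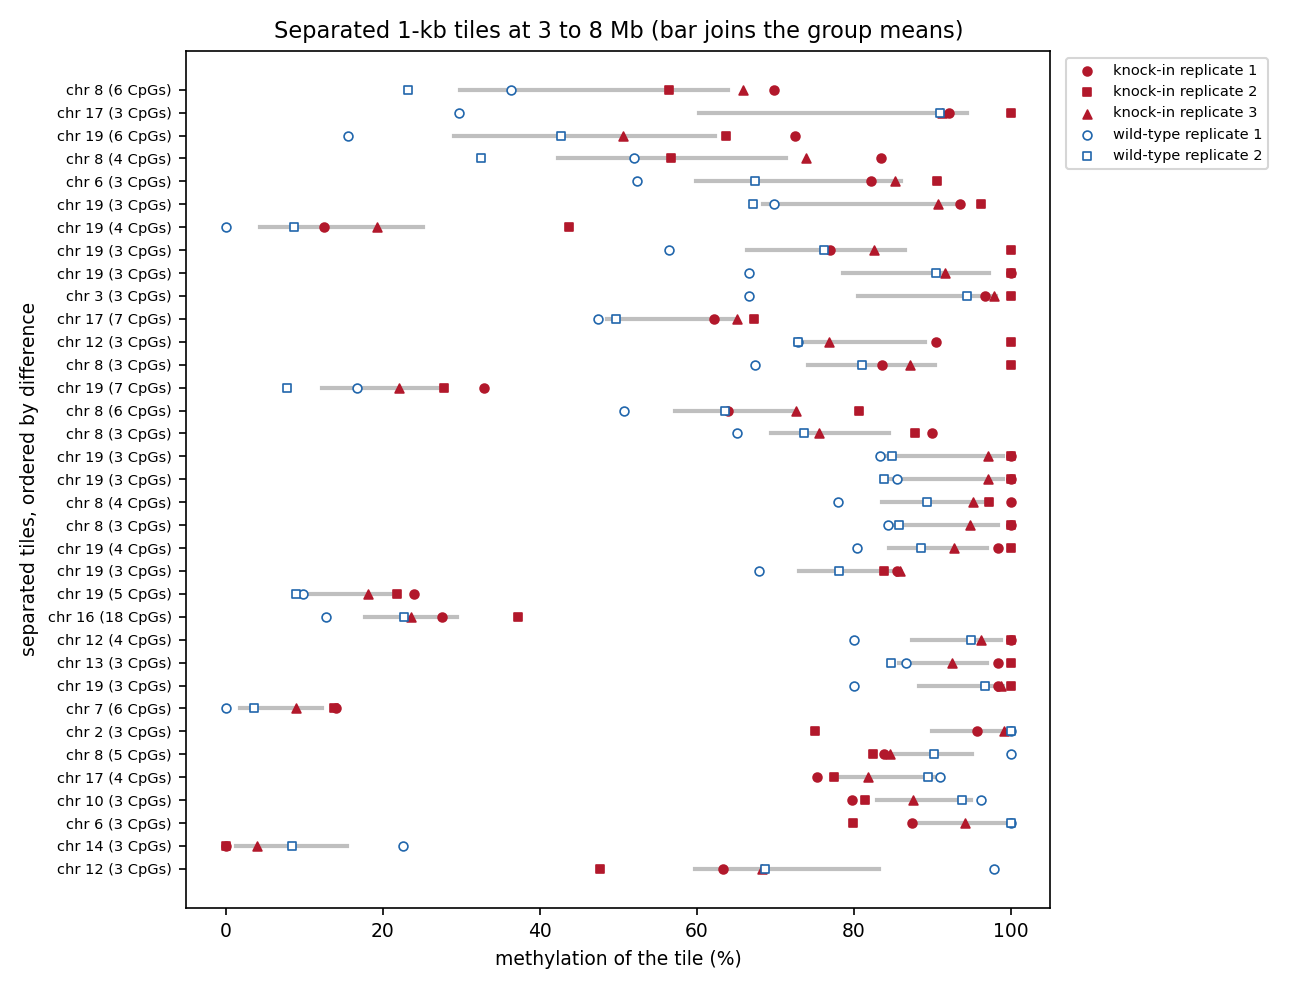
Methylation (%) of the 35 separated tiles in each library, ordered by the difference of the group means, with a grey bar between the means; filled red symbols are the 3 knock-in and open blue symbols the 2 wild-type libraries. Most rows hold 3 to 7 CpGs, and in many of them the nearest libraries of the groups almost touch.

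The smallest unadjusted edgeR p-values belonged to tiles near 0 or 100%, where the libraries differed by a few points. The tile chr11:5345000-5345999 (11 CpGs) was at 4.72%, 4.81% and 1.43% in the knock-in and 0% in both wild-type libraries, with an edgeR p of 0.00903. The tile chr1:4678000-4678999 (3 CpGs) was at 100% in each knock-in library and at 91.5% and 96.9% in the wild-type, with an edgeR p of 0.0123. With the knock-in lower, chr5:5694000-5694999 (7 CpGs), which overlaps the promoter of the metalloreductase gene Steap2, was at 0% in each knock-in library and at 3.30% and 0.353% in the wild-type. Its unadjusted edgeR p over all 5 libraries was 0.00589. The tile chr5:4104000-4104999 (5 CpGs), with the Cyp51 promoter, was at 0% in each knock-in library and at 5.17% and 0.303% in the wild-type. Its unadjusted edgeR p was 0.0174. The adjusted edgeR p of these tiles was 1. The 2 tiles on chromosome 5 differed by -0.35 and -0.30 points without wild-type 1.

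The gene promoters that could be placed in the windows were mostly almost free of methylation. Placement required at least 8 listed positions, so promoters with few listed CpGs could not enter. The level of the promoters left out was not analysed. Of the 155 genes with at least 3 promoter CpGs, 149 had a mean under 5%, 152 under 20%, 3 between 20 and 80%, and 0 at 80% or more. Some of these genes share CpGs, since neighbouring promoters overlap. The mean over the 155 was 1.64%, 1.68% and 1.36% in the knock-in against 1.16% and 0.994% in wild-type libraries. The group means of 1.56% ± 0.173 (SD, n = 3) and 1.08% ± 0.121 (SD, n = 2) differed by 0.481 points, with an exact permutation p of 0.2. Without Arhgef18 the difference was 0.271 points, so that 1 promoter accounted for much of it. All knock-in libraries were above both wild-type libraries at 9 promoters and below at 3, which is 5.81% and 1.94%. Cdca5 and Zfpl1, both among the 9, share the same 12 positions. Among all autosomal tiles the shares were 8.98% and 3.61%. Among autosomal tiles under 20%, the class of most of these promoters, they were 6.56% and 2.80%.

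Usp6nl encodes a GTPase-activating protein that acts on Rab proteins in endocytosis. Its promoter had 47 positions at 0.155%, 0.0589% and 0.0308% in the knock-in and 0% in both wild-type libraries, on 606 to 6495 reads. Its 1-kb tile was one of the 5 with the most CpGs, which held 52 to 74 CpGs each and averaged 0.0647% to 0.711%. At a coverage minimum of 20 the Usp6nl tile averaged 0.851% in place of 0.086%, and chr18:4635000-4635999 averaged 0.569% in place of 0.257%. Another of these, chr11:5965000-5965999, overlaps the promoter of Camk2b, the beta subunit of a calcium- and calmodulin-dependent kinase. It was at 1.06%, 0.043% and 1.06% in the knock-in against 0.325% and 1.07% in wild-type libraries. In all, 115 of the 895 tiles were at 0% in every library.

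Cyp51 encodes the sterol demethylase of cholesterol synthesis. Its 5 promoter positions were at 0% in all knock-in libraries and at 5.17% and 0.303% in the wild-type, on 113 to 512 reads. The difference of -2.74 points came mainly from wild-type 1, the shallowest library. It was the largest difference among the 149 promoters under 5%.

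Arhgef18 was the only one of the 155 promoters whose groups were separated, with the knock-in higher. Of all autosomal tiles, 2.37% were separated in that direction. The share was 0.544% among autosomal tiles under 20% and 14.1% among those between 20 and 80%. Arhgef18 encodes a guanine nucleotide exchange factor that activates the small GTPase RhoA. Its 10 promoter positions were at 76.9%, 56.5% and 69.0% in the knock-in against 42.5% and 27.0% in wild-type libraries. Reads summed over the 10 positions were 127 to 1315, and the library with the fewest, wild-type 1, had 11 to 19 reads per position. The lowest knock-in library stood 14.02 points above the highest wild-type library. The means were 67.5% ± 10.3 (SD, n = 3) and 34.7% ± 11.01 (SD, n = 2), a difference of 32.8 points that ranged from 25.0 to 40.5 points when each library was left out. The tile chr8:3392000-3392999, which holds 6 of these CpGs, was at 69.8%, 56.4% and 65.9% against 36.4% and 23.2%, and had an unadjusted edgeR p of 0.175 and an adjusted p of 1. The promoter was singled out after its values were seen.

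The strands of this promoter were not equally deep. On the reverse strand 5 CpGs were at 76.4%, 62.4% and 77.6% in the knock-in against 39.1% and 24.4% in wild-type libraries, 40.4 points apart, on 12 to 134 reads per CpG. On the forward strand 5 CpGs were at 79.1%, 40.0% and 60.7% against 46.0% and 29.5%, 22.2 points apart, and the groups overlapped. There knock-in 2 had 10 reads per CpG and stood at exactly 0 or 100% at each of the 5 CpGs, and wild-type 1 had 11 to 19 reads. The separation of the groups was thus seen on the reverse strand and in the sum of both strands, and not on the forward strand alone.

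**Figure D5:**
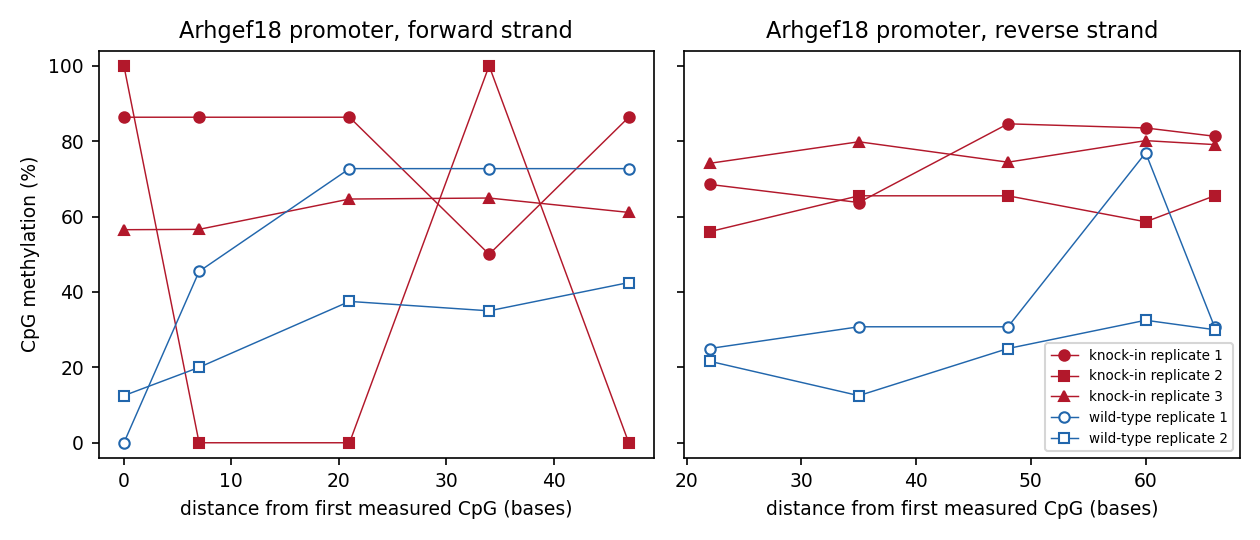
Methylation (%) of each measured CpG of the Arhgef18 promoter on the forward and reverse strands, by distance in bases from the first measured CpG, with 1 line per library. On the reverse strand the knock-in lines stand above those of the wild-type at every CpG except 1, where wild-type 1 reaches 76.9%; on the forward strand knock-in 2 jumps between 0 and 100%.

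The other intermediate promoters did not separate. Il11 encodes interleukin 11, a cytokine of the interleukin 6 family. Its 6 positions were at 51.9%, 61.2% and 56.3% in the knock-in against 60.4% and 41.2% in wild-type libraries, on 134 to 893 reads. The non-coding gene LOC115490388 on chromosome 6 had 8 positions at 45.7%, 56.4% and 33.9% against 46.8% and 30.5%. Next in level came Gal, the gene of the neuropeptide galanin, with 3 positions at 9.75%, 30.1% and 8.72% against 5.13% and 15.2%. In each of these 3 promoters a wild-type library lay above at least 1 knock-in library.

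One separated tile outside Arhgef18 overlaps a placed promoter. The tile chr19:7341000-7341999 (5 CpGs), at the start of Rcor2, a corepressor gene of the CoREST family, averaged 21.3% ± 2.96 (SD, n = 3) in the knock-in and 9.41% ± 0.599 (SD, n = 2) in the wild-type. Its difference was 11.9 points, with an edgeR p of 0.383 before adjustment. The genes in or beside the other 32 separated tiles were not analysed here, since an mm9 annotation was not used.

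The 5 tiles with the highest median coverage per CpG, taken in each tile's shallowest library, showed no genotype difference beyond the spread between libraries. The tile chr8:3754000-3754999 (6 CpGs) had 2628 to 32131 reads and stood at 12.1%, 17.0% and 15.8% in the knock-in against 13.2% and 19.1% in wild-type libraries. Its mean of 15.4% was 11% after thinning each CpG to 10 reads. It was 5.59% without the 4 of its 6 CpGs in the top 0.1% of coverage, which left fewer than the 3 required of a tile. On chromosome 9, chr9:3004000-3004999 (6 CpGs) averaged 91.1% and chr9:3027000-3027999 (3 CpGs) 86.5%, the latter 78.7% after thinning. The tiles chr10:4383000-4383999 (6 CpGs) and chr17:3084000-3084999 (5 CpGs) averaged 93.8% and 20.0%. Each of these 5 tiles had overlapping groups, with differences of -1.19 to 0.504 points.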

How the data were processed

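Each library has its own table from the authors. Per the file headers, a row is 1 strand's cytosine of a CpG, with its coverage and its frequencies of C and T. Coverage is a whole read count as deposited, never under 10. The frequencies are deposited as percent of reads, and the pair sums to 90.1 to 100. The submitters' processing notes name CASAVA 1.7, Bismark and build mm9; a Bismark version, duplicate removal and conversion correction are not given in the sources used here.

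Methylated and unmethylated reads were coverage times the percent of C and of T, which came out as whole reads at 100% of positions. Levels per library are means over CpGs, each counted once. The level of a tile or promoter is the methylated share of its reads, summed over its CpGs. The 5 libraries held 447270 to 2028186 listed positions, and their reads summed over the window CpGs came to 207773 to 1531925. Deeper libraries give finer levels. Reads carry no molecular identifiers, so depth covers counting error only.

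Group levels were compared by exact 2-sided permutation over 10 divisions, and windows with the rest by exact sign flips (32), in Python 3.11.15 with numpy 2.4.6 and pandas 2.3.3. Tiles were tested with edgeR 4.0.16 (R 4.3.3) with the quasi-likelihood fit to both kinds of read count and a term per library. The limma alternative (3.58.1) used arcsine square root levels or log2 ratios with 1 read added. The tile tests and the promoter placement were tested on simulated data. Other alternatives were a coverage minimum of 20, thinning to 10 reads, weighting by reads, other minimums of CpGs per tile, a 3 to 5 Mb window, leaving out chromosomes, deep positions or each library, and, added after seeing the data, leaving out chromosomes 11 and 19, the first 0.1 Mb or the Arhgef18 tiles, and means over tiles per chromosome.

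Named tiles were up to 6 separated tiles in each direction by the gap between nearest libraries, the 2 in each direction with the smallest edgeR p, the 5 deepest and the 5 with the most CpGs. Named chromosomes were the 3 highest, the 3 lowest and those whose libraries separate. Chromosome 8, the differences between chromosomes and the promoters were added after their values were seen. Promoters were placed where at least 8 listed positions fitted the CpGs of the sequence, none contradicted them, the next placement fitted at least 4 fewer and another gene shared the offset; 403 of 1529 tried were placed. No coordinates were converted between builds. The windows, lists and tests were chosen with earlier results of these data known.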

Additional observations from a re-analysis of the deposited data

How the results depend on the processing

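The window excess over the rest of the autosomes and the knock-in excess in the windows kept their sign in every alternative run. The difference between the genotype differences of windows and rest (0.000786 points) was -0.00758 without chromosome 9, -0.0315 after thinning to 10 reads, -0.524 weighted by reads, -0.0140 over tiles, -0.00436 over tiles weighted to the window's density classes and -0.0470 without chromosomes 11 and 19. It ranged from -0.0717 to 0.0733 points when each library was left out.

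Separated tiles with the knock-in higher and lower numbered 4 and 0 at a coverage minimum of 20. They numbered 1 and 0 among tiles of 10 or more CpGs, and 6 and 0 with the nearest libraries 10 points apart. From 3 to 5 Mb there were 11 higher and 6 lower. Coverage, CpG and window limits also left fewer tiles (336, 294 and 438 of 895). Leaving out each library gave 29 to 58 higher and 9 to 27 lower, both highest without wild-type replicate 2. With fewer libraries the groups overlap less easily, so these counts cannot be set against those of all 5 libraries. Shares over all autosomal tiles are not given for the left-out libraries, the CpG limit or the 3 to 5 Mb window. No alternative of edgeR or limma called a tile.

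The genotype difference of a window changed sign in 13 of 134 comparisons. Weighted by reads it was -1.13 on chromosome 1, -1.94 on 3, -0.733 on 4, -0.494 on 7, -1.09 on 8, 1.33 on 10, -2.24 on 13, 3.01 on 14 and -0.380 on 18. At a coverage minimum of 20 it was 0.131 on chromosome 5, -0.140 on 9 and 0.166 on 10. On chromosome 5 it ranged from -0.619 to 0.284 when each library was left out, positive only without wild-type replicate 1. The window minus the rest of its chromosome changed sign in 14 of 152. At a coverage minimum of 20 it was -9.34 on chromosome 4, 3.37 on 6, 0.917 on 10 and 4.76 on 11. Over tiles weighted to the window's density classes it was 4.13 on chromosome 1, 2.83 on 11, 0.0668 on 16, 3.67 on 18 and -49.0 on 14, which has no tile in the densest class. Over unweighted tiles, an alternative added after seeing the data, it was 0.885 on 11, -20.6 on 14, 0.666 on 16, 4.24 on 17 and 2.95 on 18. The causes were not tested. Of 197 values of named tiles, 7 moved beyond the spread between libraries; those not given beside the tile are thinned means of 96.0% at chr10:4383000-4383999 and 89.7% at chr9:3004000-3004999.

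No paired analysis was possible because the labels give no replicate numbers; the numbers used here only name the libraries. Wild-type replicate 1, at a median of 18 reads, and knock-in replicate 2 limit single CpGs most.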

Other observations

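The most deeply read single CpGs of the windows lay in a few short stretches. On chromosome 11, neighbouring forward-strand positions at bases 3093351, 3093358 and 3093388 had 841 to 7301 reads per library. The first was at 94.2%, 88.0% and 90.0% in the knock-in against 87.9% and 89.8% in wild-type libraries. The third was at 67.8%, 44.1% and 61.5% against 62.6% and 64.8%, and knock-in 2 was the lowest library there. The cytosine of the same CpG on the other strand, at base 3093389, was at 69.0%, 53.0% and 57.6% against 68.4% and 61.6%, with knock-in 2 again lowest, on 652 to 5453 reads. These positions were chosen for depth after the values were seen.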
